A study of Mus musculus with 7 samples.

Results

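The miR-26 family of the mouse consists of miR-26a-5p and miR-26b-5p, the mature miRNAs made from 3 genes that lie inside the Ctdsp genes. Both, mmu-miR-26a-5p and mmu-miR-26b-5p, were taken by their exact names. No measured value entered that rule, but the members and the miRNA lists used below were chosen with earlier results of these data known. The members make 2 rows of a table of 820 miRNAs. These were measured by small RNA sequencing in extracellular vesicles, the membrane particles that cells shed, isolated from epididymal white adipose tissue. All mice were male and ApoE-/-, a genotype prone to atherosclerosis, and were 8 weeks old per the labels. The HFD+Ni group received a high-fat diet with nicotine at 2 mg/kg/day and the HFD group a high-fat diet without nicotine, both for 12 weeks. The labelled age is shorter than this treatment, so it cannot be the age at the end of it. There were 3 HFD+Ni libraries and 4 HFD libraries, all carrying the same batch label. The labels do not say whether a library stands for 1 animal or several, so all p-values measure the spread between these libraries, which may be partly technical.

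miRNAs guide Argonaute proteins to messenger RNAs by pairing through the seed, the stretch near the 5′ end that is capitalised in the sequences here. The miR-26 genes are transcribed with their host genes, which encode small phosphatases of the RNA polymerase II C-terminal domain, and miR-26a together with its hosts restrains cell cycle entry through the retinoblastoma pathway. In fat the family has been reported to act in both directions. In human adipocyte progenitors miR-26a and miR-26b promote differentiation and brown-type features. In mice that lack all miR-26 genes, by contrast, adipocyte progenitors differentiate more readily and fat mass is higher. In mouse liver miR-26a favours insulin sensitivity.

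The mature sequences, from RefSeq on GRCm38.p6, are shown because the shared seed makes the members a family and their few differing bases are all that tells their reads apart.
miR-26a-5p: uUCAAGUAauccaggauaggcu
miR-26b-5p: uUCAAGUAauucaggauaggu
Capitals mark the seed, bases 2 to 8. Of 1679 mature mouse miRNA names in the RefSeq table, 2 carry this seed, and they are the members described here. Counted from 1 at the 5′ end of miR-26a-5p, the members differ by C11U and C21U, and miR-26b-5p ends 1 base earlier, at 21 bases. They are identical at 19 of 21 shared positions, including the first 10 bases. A read that stops before base 21 therefore tells them apart by base 11 only, and fits both if 1 mismatch is allowed. No source used here gives the mismatches that the authors allowed in assigning reads.

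The precursor hairpins show that 1 mature sequence comes from 2 loci and the other from 1 locus. Capitals mark the 5p arm, the mature strand.
Mir26a-1: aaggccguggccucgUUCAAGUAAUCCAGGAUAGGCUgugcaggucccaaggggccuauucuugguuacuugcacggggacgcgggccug
Mir26a-2: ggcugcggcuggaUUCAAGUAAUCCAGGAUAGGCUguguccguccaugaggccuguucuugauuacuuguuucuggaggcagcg
Mir26b: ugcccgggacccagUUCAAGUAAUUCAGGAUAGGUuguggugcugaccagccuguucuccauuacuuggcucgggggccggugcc
Mir26a-1 lies at chr9:119031796-119031885 on the plus strand of GRCm38, in an intron of both coding transcripts of Ctdspl in GENCODE M21. Mir26a-2 lies at chr10:126995530-126995613 on the plus strand, in intron 5 of 1 coding transcript of Ctdsp2, and overlaps an exon of the other annotated coding transcript. Mir26b lies at chr1:74394310-74394394 on the plus strand, in intron 4 of 1 of 2 coding transcripts of Ctdsp1. Because miR-26a-5p is the same sequence from both its genes, its level is the sum of Mir26a-1 and Mir26a-2, and only the 3p arms can tell these loci apart.

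The libraries held 53626, 175892 and 107631 miRNA reads in HFD+Ni replicates 1 to 3, and 80817, 1055902, 117459 and 77021 in HFD replicates 1 to 4. Levels are given in rpm, reads per 1000000 miRNA reads of a library, so they are relative amounts: fewer vesicles from a cell type and less miRNA per vesicle cannot be told apart. One set of fat-enriched miRNAs, chosen as a check of the labelled tissue, was read in full (6 of 6 listed) and summed to between 24658 and 29461 rpm in HFD+Ni libraries and between 26554 and 31719 rpm in HFD libraries, although none of its members is restricted to fat. Most of each sum was miR-30a-5p, which averaged 18899 rpm in HFD+Ni and 20838 rpm in HFD. miR-193b-3p of the same set averaged 9.48 and 9.81 rpm, so the sum is a weak check. HFD+Ni replicate 1 stood apart in epithelial miRNAs (6 of 6 markers listed), which reached a sum of 45146 rpm there, against 6311 and 6820 rpm in the other HFD+Ni libraries and between 4813 and 13605 rpm in HFD libraries. Leukocyte miRNAs (6 of 6 listed, none at 0 throughout) summed to between 3431 and 4571 rpm in HFD+Ni libraries and between 5558 and 7115 rpm in HFD libraries. Endothelial miRNAs (2 of 2 listed) likewise summed to between 12979 and 18851 rpm in HFD+Ni libraries and between 20518 and 32381 rpm in HFD libraries. Testis and sperm miRNAs (8 of 9 listed, without miR-471-5p) lay the other way, at 1200 to 2406 rpm in HFD+Ni libraries and 602 to 1077 rpm in HFD libraries. Most of this sum was miR-34b-5p and miR-34c-5p, which averaged 438 and 969 rpm in HFD+Ni and 187 and 607 rpm in HFD. The next, miR-741-3p, averaged 130 ± 153 rpm in HFD+Ni (SD, n = 3) and 3.08 ± 6.16 rpm in HFD (SD, n = 4). Striated muscle miRNAs (5 of 6 listed, without miR-208a-3p) summed to between 762 and 1156 rpm in HFD+Ni libraries, against 866, 4301, 919 and 4025 rpm across the HFD libraries in replicate order. None of these sums was tested between the groups. Among the 387 miRNAs that averaged 5 rpm or more, 0 passed a limma adjusted p of 0.05. The groups did not overlap for 20 of the 387 (5.17%). Taken singly, miR-126a-3p and miR-126a-5p overlapped between the groups, as did the leukocyte miRNAs other than miR-223-3p. Of the testis and sperm miRNAs, miR-34b-5p, miR-34c-5p and miR-449a-5p did not overlap, and the others did. The part of these lists in the miR-26 levels was not tested.

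Both members were abundant vesicle miRNAs in every library, and neither differed between the groups beyond the spread between libraries. miR-26a-5p was at 10070, 10654 and 16306 rpm in HFD+Ni replicates 1 to 3, and at 11458, 14206, 14831 and 15801 rpm in HFD replicates 1 to 4. The groups overlapped: HFD+Ni replicates 1 and 2 were the lowest of all libraries and HFD+Ni replicate 3 was the highest. miR-26a-5p averaged 12343 ± 3444 rpm in HFD+Ni (SD, n = 3) and 14074 ± 1863 rpm in HFD (SD, n = 4). Its log2 fold change was -0.21 (SE 0.23) in limma, with an adjusted p of 0.830. The 95% interval of that fit covers an HFD+Ni level from 0.612 to 1.21 times the HFD level, so neither a decrease of that size nor a small increase could be told from no change.

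miR-26b-5p was high and low in nearly the same libraries, at a lower level. It was at 6788, 7169 and 12227 rpm in HFD+Ni replicates 1 to 3, and at 7300, 10995, 10480 and 12230 rpm in HFD replicates 1 to 4. HFD+Ni replicates 1 and 2 and HFD replicate 1 were low, and HFD+Ni replicate 3 and HFD replicate 4 were nearly equal at the top. miR-26b-5p averaged 8728 ± 3036 rpm in HFD+Ni (SD, n = 3) and 10252 ± 2100 rpm in HFD (SD, n = 4). The log2 fold change was -0.26 (SE 0.27) with a limma adjusted p of 0.830, and its 95% interval covers 0.556 to 1.25 times the HFD level. Exact two-sided permutation of the libraries gave p = 0.457 for each member, where 0.0571 is the smallest p that 3 against 4 libraries allow.

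**Figure D1:**
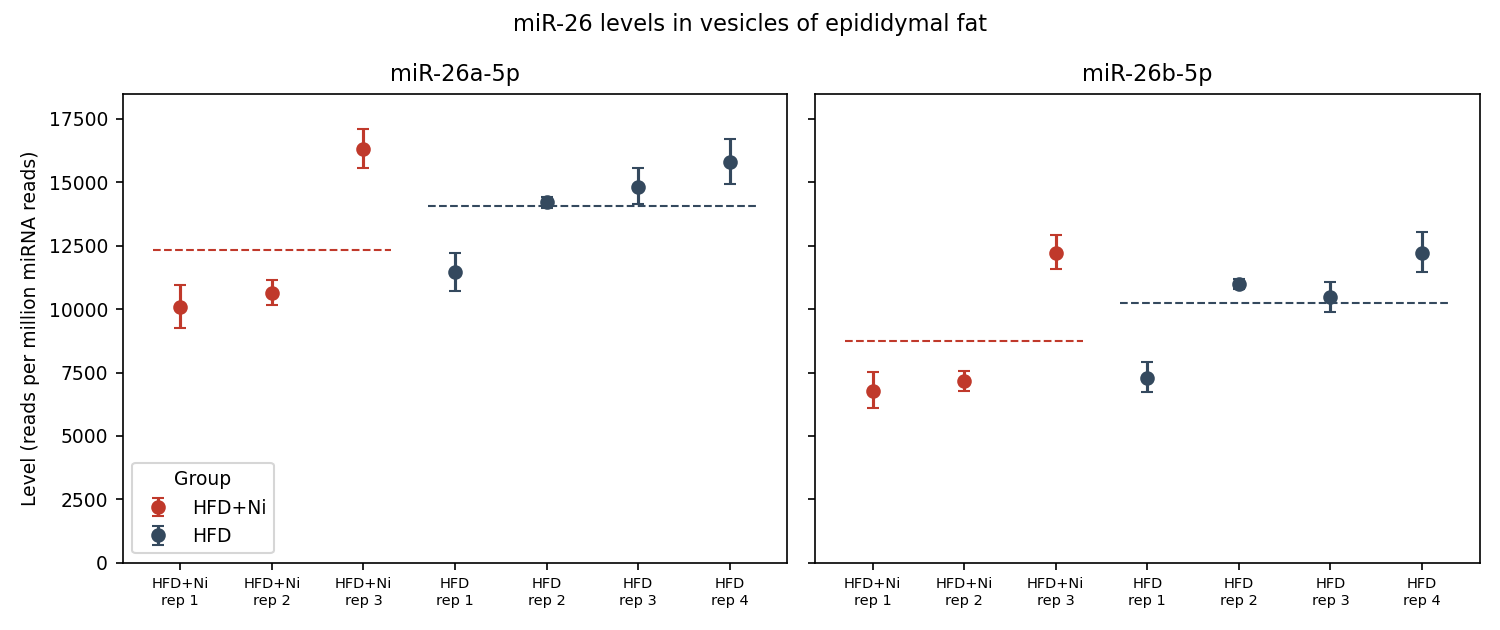
Level of miR-26a-5p (left) and miR-26b-5p (right) in each library, in rpm; bars are 95% Poisson intervals of the read counts and dashed lines are group means. HFD+Ni replicate 3 lies at 16306 rpm of miR-26a-5p, above all HFD libraries, while HFD+Ni replicates 1 and 2 lie below all of them.

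The spread between libraries was wider than counting error. miR-26a-5p rested on 540, 1874 and 1755 reads in HFD+Ni replicates 1 to 3 and on 926, 15000, 1742 and 1217 reads in HFD replicates 1 to 4. miR-26b-5p rested on 364, 1261 and 1316 reads in the HFD+Ni libraries and on 590, 11610, 1231 and 942 reads in the HFD libraries. Counting alone would give a coefficient of variation of at most 4.30% for miR-26a-5p and 5.24% for miR-26b-5p in any library. The observed coefficients were 27.9% and 34.8% in HFD+Ni, against 13.2% and 20.5% in HFD. In HFD+Ni replicate 1 the 95% Poisson interval of miR-26a-5p ran from 9238 to 10956 rpm, and in HFD+Ni replicate 3 from 15552 to 17087 rpm, so these libraries of the same group differ by more than counting error. For the 64 miRNAs that averaged 1000 rpm or more, the median coefficients were 29.9% in HFD+Ni and 24.9% in HFD. Among them, counted from the least variable, miR-26a-5p stood at place 27 in HFD+Ni and place 14 in HFD, and miR-26b-5p at places 38 and 27. PCR copies of a molecule are not independent, so these intervals describe counting error and nothing else.

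Both members had a log2 fold change below 0 under all 20 alternative settings, but its size rested on single libraries. Without HFD+Ni replicate 3 the log2 fold change was -0.43 for miR-26a-5p (limma adjusted p = 0.800) and -0.53 for miR-26b-5p (adjusted p = 0.800). Without HFD+Ni replicate 1 it was -0.08 and -0.11, and without HFD+Ni replicate 2 it was -0.13 and -0.14. Without HFD replicate 1 it was -0.41 for miR-26b-5p. In the authors' deposited table the log2 fold change of HFD+Ni over HFD is -0.18 for miR-26a-5p and -0.22 for miR-26b-5p, each with an FDR of 1. The authors' shorter list of 15 changed miRNAs holds 0 miR-26 entries.

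The comparison as a whole gave few calls. Among the 387 miRNAs tested, 0 (0%) passed an adjusted p of 0.05 in limma and 11 (2.84%) passed 0.05 before adjustment. In edgeR 0 (0%) passed after adjustment and 28 before it, and in DESeq2 1 (0.258%) and 19, the 1 being miR-1a-3p, a muscle miRNA named here after its value was seen. Both members were among the miRNAs tested. Neither member was in any of these counts. The groups did not overlap for 20 of the 387 (5.17%), again without a miR-26 member. By unadjusted p, miR-26b-5p ranked 163 and miR-26a-5p 165 of 387. The median log2 fold change over all tested miRNAs was 0.04, and 183 of them (47.3%) lay below 0. Among the 64 miRNAs at 1000 rpm or more the median was -0.07 and 34 lay below 0.

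**Figure D2:**
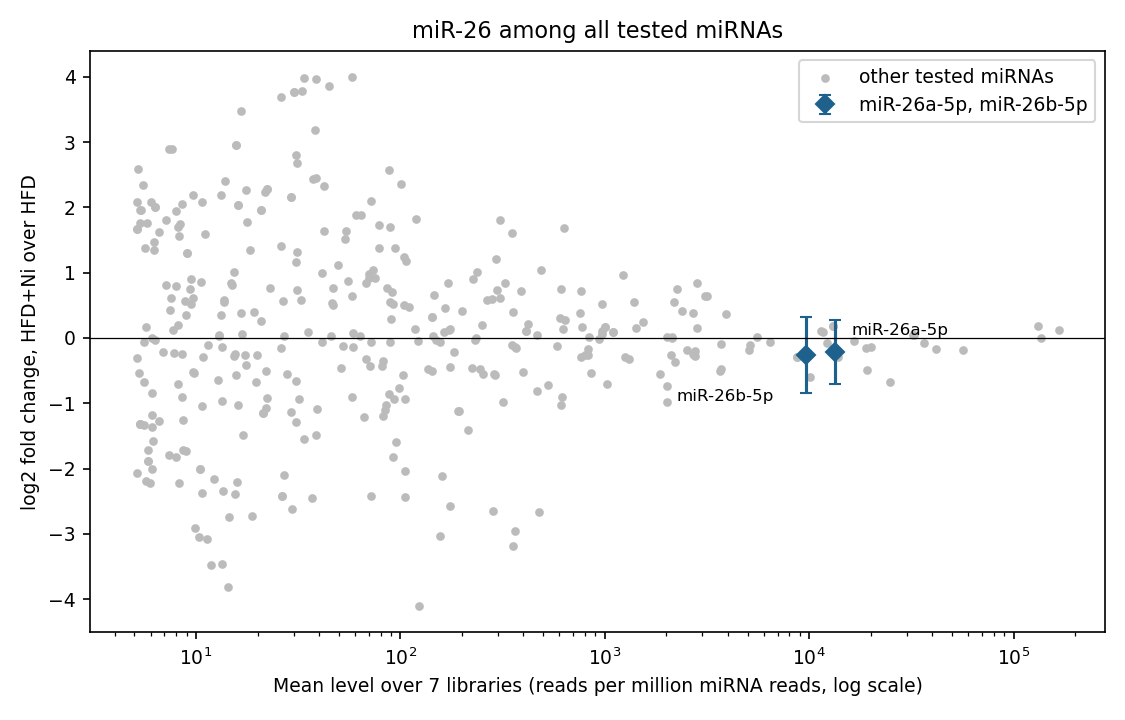
log2 fold change of HFD+Ni over HFD (vertical axis) against the mean level over the 7 libraries in rpm (horizontal log axis) for the 387 tested miRNAs; diamonds are miR-26a-5p and miR-26b-5p with the 95% interval of the limma fit. Both intervals, around -0.21 and -0.26, include 0.

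Together the members made up a few percent of the vesicle miRNA reads in each library. Their reads summed to 1.69%, 1.78% and 2.85% of miRNA reads in HFD+Ni replicates 1 to 3, and to 1.88%, 2.52%, 2.53% and 2.80% in HFD replicates 1 to 4. The 95% Wilson intervals of the shares ran from 1.58% to 1.80% in HFD+Ni replicate 1, the lowest library, and from 2.76% to 2.95% in HFD+Ni replicate 3, the highest. The mean share was 2.11% ± 0.648 in HFD+Ni (SD, n = 3) and 2.43% ± 0.394 in HFD (SD, n = 4). By level, miR-26a-5p was at rank 19, 17 and 12 in HFD+Ni replicates 1 to 3 and at rank 17, 16, 13 and 14 in HFD replicates 1 to 4. miR-26b-5p was at rank 26, 24 and 18 in the HFD+Ni libraries and at rank 24, 21, 22 and 19 in the HFD libraries.

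Neighbours in the order of mean level lay close to the members, and their order changed between libraries. The differences in level were not tested. Over all 7 libraries miR-26a-5p averaged 13332 ± 2558 rpm (SD, n = 7). It followed miR-125a-5p at 16576 ± 4303 rpm and miR-16-5p at 13818 ± 4879 rpm, and each of these was above it in 3 of 7 libraries. Next came miR-10a-5p and miR-10b-5p, both at 13072 ± 3238 rpm, close relatives at almost equal levels that may share reads. Each was above miR-26a-5p in 2 of 7 libraries. miR-26b-5p averaged 9599 ± 2438 rpm. It followed miR-23b-3p at 11467 ± 4495 rpm, which was above it in 4 of 7 libraries, and miR-21a-5p at 10073 ± 3655 rpm, above it in 5 of 7. After it came miR-103-3p at 8749 ± 2518 rpm, which was above it in 3 of 7 libraries. miR-103-3p has a near-identical relative at the same level, miR-107-3p.

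The members kept the same order in every library, with more reads of miR-26a-5p than of miR-26b-5p. Being a ratio within a library, this comparison does not depend on the scaling to library size. It does depend on how reads that fit both members were assigned, which is not known. miR-26a-5p had 1.48, 1.49 and 1.33 reads per miR-26b-5p read in HFD+Ni replicates 1 to 3, and 1.57, 1.29, 1.42 and 1.29 in HFD replicates 1 to 4. The ratio averaged 1.43 ± 0.0873 in HFD+Ni (SD, n = 3) and 1.39 ± 0.132 in HFD (SD, n = 4), and the groups overlapped. The ratio was highest in HFD replicate 1 and in HFD+Ni replicates 1 and 2, the libraries with the least of both members. Its 95% interval from read counts ran from 1.42 to 1.74 in HFD replicate 1 and from 1.26 to 1.32 in HFD replicate 2, so these libraries of the same group differ by more than counting error. miR-26b-5p thus spanned a wider range than miR-26a-5p, 1.80-fold from the lowest to the highest library against 1.62-fold within HFD+Ni, and 1.68-fold against 1.38-fold within HFD.

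**Figure D3:**
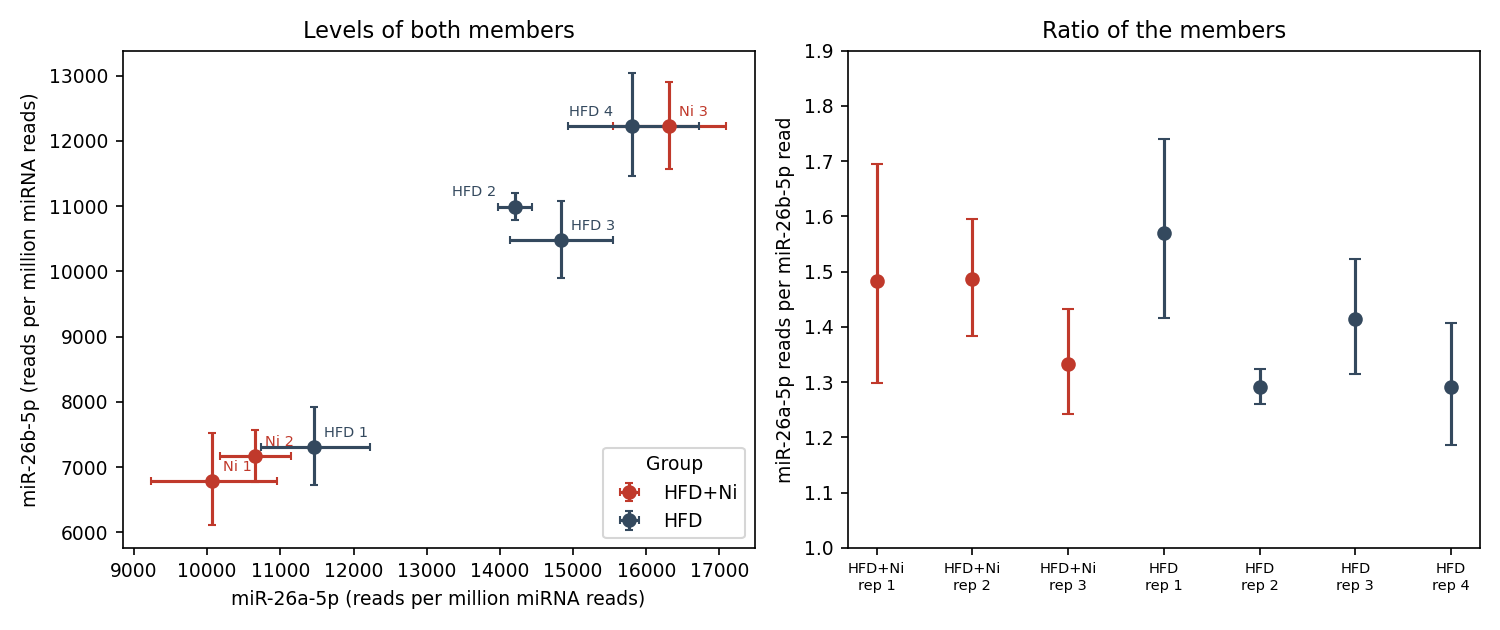
Left, level of miR-26b-5p against miR-26a-5p in rpm, each point a library named by group (Ni for HFD+Ni) and replicate, with 95% Poisson intervals. Right, miR-26a-5p reads per miR-26b-5p read in each library with 95% Wilson-based intervals, on an axis that starts at 1. Libraries of both groups fall in the low cluster (HFD+Ni replicates 1 and 2, HFD replicate 1) and in the high cluster, and the ratio is 1.29 to 1.57 throughout.

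Within this pattern the libraries formed separate clusters, with HFD+Ni replicates 1 and 2 and HFD replicate 1 low in both members and the other 4 libraries high. The correlation between the members is therefore given without a p-value. As a measure of likeness only, the Pearson correlation of their log2 levels was 0.99 over the 7 libraries. Each member was the other's closest match among 155 other miRNAs that averaged 100 rpm or more, where the median correlation was 0.06 for miR-26a-5p and 0.07 for miR-26b-5p. All such values share the libraries, their depth and the common total of 1000000 rpm, and reads that fit both members would add to the likeness of this pair.

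The same 4 miRNAs came next for both members. miR-122-5p, the dominant miRNA of hepatocytes, had a correlation of 0.91 with miR-26a-5p and 0.87 with miR-26b-5p. It was at 0, 0 and 725 rpm in HFD+Ni replicates 1 to 3 (0, 0 and 78 reads), and at 24.8, 26.5, 25.5 and 428 rpm in HFD replicates 1 to 4 (2, 28, 3 and 33 reads). Its 2 high libraries, HFD+Ni replicate 3 and HFD replicate 4, are those with the most of both members, and its 2 libraries without a read are those with the least. Where 0 reads were counted, the floor of 3 reads comes to 55.9 rpm for HFD+Ni replicate 1 and to 17.1 rpm for HFD+Ni replicate 2, so lower levels were not detectable there. As the only hepatocyte marker on the list it ranged from 0 to 725 rpm in HFD+Ni and from 24.8 to 428 rpm in HFD, and its part in the miR-26 levels was not tested.

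The remaining miRNAs of similar pattern were abundant. miR-16-5p, which restrains the cell cycle and is plentiful in blood cells, had correlations of 0.86 with each member. It was at 9231, 9148 and 19177 rpm in HFD+Ni replicates 1 to 3, and at 12052, 14159, 11289 and 21669 rpm in HFD replicates 1 to 4. The erythrocyte list, with miR-144-3p, miR-451a and, in place of miR-486a-5p, which is not listed, its relative by name, miR-486b-5p (added after its values were seen), summed to 0, 472 and 1013 rpm in HFD+Ni replicates 1 to 3, against 297, 1270, 196 and 571 rpm across the 4 HFD libraries in replicate order. Most of each sum above 0 was miR-486b-5p, at 0, 335 and 864 rpm in the HFD+Ni libraries and 272, 1159, 187 and 519 rpm in the HFD libraries, and its part in the miR-26 levels was not tested. miR-143-3p, of smooth muscle and mesenchymal cells and a promoter of adipocyte differentiation, had correlations of 0.80 and 0.86. It was at 13258, 11825 and 30001 rpm in HFD+Ni replicates 1 to 3, and at 14848, 51105, 19683 and 34069 rpm in HFD replicates 1 to 4. The smooth muscle and mesenchymal list, with miR-199a-3p counted under the name of miR-199b-3p, which has the same mature sequence, summed to between 19263 and 41633 rpm in HFD+Ni and between 23077 and 66876 rpm in HFD (4 of 4 markers). Its part in the miR-26 levels was not tested. let-7j, the fifth, a relative of the let-7 miRNAs whose reads may be shared with them, had correlations of 0.76 and 0.78 and ranged from 3562 to 7609 rpm in HFD+Ni and from 3737 to 6375 rpm in HFD.

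**Figure D4:**
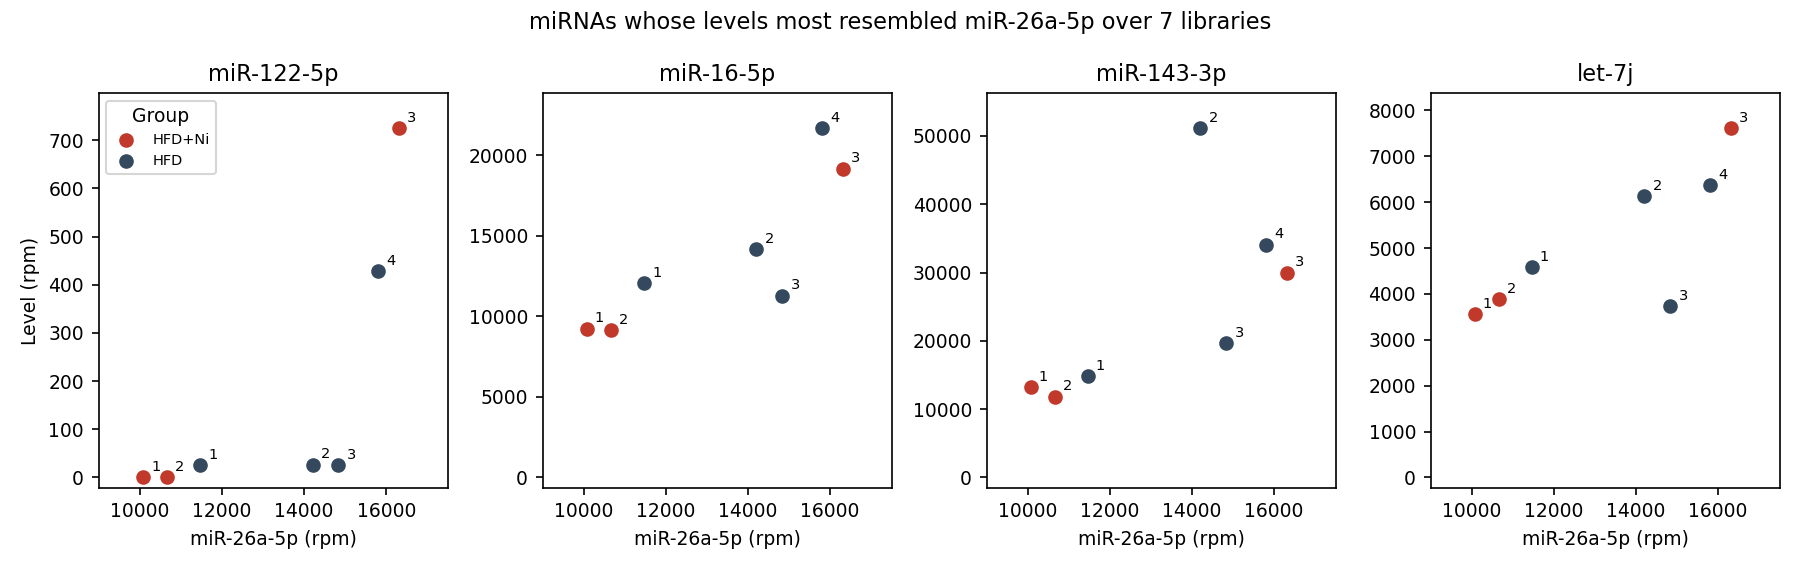
Level of miR-122-5p, miR-16-5p, miR-143-3p and let-7j (vertical axes) against miR-26a-5p (horizontal axes) in rpm, each point a library marked with its replicate number. HFD+Ni replicate 3 and HFD replicate 4, at 16306 and 15801 rpm of miR-26a-5p, hold 725 and 428 rpm of miR-122-5p.

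The 3p arms, the strands opposite the mature ones in the hairpins, were close to the limit of detection. Over all libraries 25 reads were 3p and 40368 were 5p, so 0.0619% of the pooled miR-26 reads came from the 3p arm (95% exact interval 0.0401% to 0.0914%). HFD replicate 2 alone gave 18 of these 3p reads and 26610 of the 5p reads, so the pooled value is mostly that of 1 library. The interval covers counting error and not the spread between libraries, where HFD+Ni replicate 2 stood at 0.127%. miR-26a-1-3p had 0, 1 and 0 reads in HFD+Ni replicates 1 to 3, and 0, 3, 3 and 0 reads in HFD replicates 1 to 4. miR-26a-2-3p had 0 reads in all HFD+Ni libraries, and its 12 reads all came from HFD replicate 2, the deepest library. miR-26b-3p had 3 reads in HFD+Ni replicate 2 and 3 in HFD replicate 2, and none elsewhere. All 3 arms had a mean under 5 rpm and were not tested. Both Mir26a loci were therefore read as 3p in HFD libraries, but their shares of miR-26a-5p could not be estimated at this depth.

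The other miRNAs of adipocyte differentiation showed no call in either direction. A first list holds 18 miRNAs reported to promote it. Both miR-26 members were placed there, although mice without miR-26 genes were reported to go the other way. Of the 18, 0 passed an adjusted p of 0.05 in limma, edgeR or DESeq2. Before adjustment 2, 3 and 2 passed 0.05, beside 11 (2.84%), 28 and 19 of all 387 tested miRNAs. In limma 12 had a log2 fold change below 0 and 6 above, beside 47.3% of all tested miRNAs below 0. Their median was -0.18, or -0.15 without the miR-26 members, beside 0.04 over all tested miRNAs. It was -0.12 without HFD+Ni replicate 1, and -0.02 with 9 on each side of 0 without HFD+Ni replicate 1 and HFD replicate 2 together. miR-30a-5p and miR-30d-5p, which favour adipocyte differentiation, averaged 18899 ± 2464 and 17718 ± 2119 rpm in HFD+Ni (SD, n = 3) and 20838 ± 2680 and 19743 ± 2839 rpm in HFD (SD, n = 4). miR-21a-5p, abundant in fat stroma and induced in inflammation, averaged 7637 ± 1008 rpm in HFD+Ni and 11900 ± 3955 rpm in HFD, with a log2 fold change of -0.59 at limma adjusted p = 0.830, or -0.39 without HFD replicate 2. miR-204-5p, which steers mesenchymal progenitors to fat, averaged 1114 ± 1078 rpm in HFD+Ni and 266 ± 101 rpm in HFD, with a log2 fold change of 1.68 at limma adjusted p = 0.830. HFD+Ni replicate 1, the library high in epithelial miRNAs, held 2350 rpm of it, against 631 and 362 rpm in the other HFD+Ni libraries. Without that library the HFD+Ni mean was 497 rpm and the log2 fold change 0.92. miR-143-3p averaged 18362 ± 10105 rpm in HFD+Ni and 29926 ± 16309 rpm in HFD.

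Of 16 miRNAs reported to oppose adipocyte differentiation 11 were tested, and 0 passed 0.05 in limma, edgeR or DESeq2, whether before or after adjustment. Of all 387 tested miRNAs 11, 28 and 19 passed 0.05 before adjustment in these tools. In limma 8 lay below 0 and 3 above, beside 47.3% below 0 over all tested miRNAs. The median of -0.19 was 0.08 without HFD+Ni replicate 2, -0.09 without HFD+Ni replicate 3, -0.30 without HFD replicate 4, -0.05 without HFD replicate 2 and -0.10 without HFD replicate 3. miR-27a-3p and miR-27b-3p, which repress PPARγ and are so alike in sequence that they may share reads, averaged 2481 ± 648 and 2585 ± 636 rpm in HFD+Ni, and 2884 ± 297 and 2913 ± 308 rpm in HFD. miR-145a-5p averaged 2729 ± 833 rpm in HFD+Ni and 4398 ± 3121 rpm in HFD, and miR-93-5p averaged 1915 ± 643 rpm in HFD+Ni and 2246 ± 574 rpm in HFD.

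For brown and beige fat, 15 miRNAs that promote the programme were tested, both miR-26 members included. Of these, 0 passed an adjusted p of 0.05 in limma, edgeR or DESeq2. Before adjustment 0, 1 and 0 passed 0.05, beside 11, 28 and 19 of all 387 tested miRNAs. In limma 10 lay below 0 and 5 above (47.3% of all tested miRNAs lay below 0). Their median was -0.26, the value of miR-26b-5p itself, or -0.27 without the miR-26 members. The median of the full list was 0.03 with library weights and 0.01 without HFD+Ni replicate 1 and HFD replicate 2 together. Without single libraries it was -0.02 (HFD+Ni replicate 1), -0.42 (HFD+Ni replicate 2), -0.43 (HFD+Ni replicate 3), -0.09 (HFD replicate 3) and -0.15 (HFD replicate 4). miR-26a-5p and miR-26b-5p were its most abundant members. miR-30c-5p followed at 2915 ± 1726 rpm in HFD+Ni and 4217 ± 1962 rpm in HFD. miR-378a-3p, which is made within the Ppargc1b gene, averaged 2645 ± 1435 rpm in HFD+Ni and 2833 ± 307 rpm in HFD. Of 8 tested miRNAs that oppose the programme 7 lay below 0 and 1 above, beside 47.3% of all tested miRNAs below 0. Their median was -0.22, which was -0.07 with 6 below 0 without HFD+Ni replicate 3. In the 3 tools 0 of the 8 passed 0.05, whether before or after adjustment. miR-27a-3p, miR-27b-3p, miR-93-5p and miR-155-5p were also counted among the miRNAs that oppose adipocyte differentiation, so the counts of these lists are not independent. miR-125b-5p, the most abundant of them, averaged 38945 ± 9179 rpm in HFD+Ni and 43795 ± 10451 rpm in HFD.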

How the data were processed

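Small RNA libraries of vesicle RNA were compared between 3 HFD+Ni and 4 HFD samples, grouped by the treatment label. The authors deposited 1 table of rpm values (named TPM) that sum to 1000000 per library, with their p-value, FDR and log2 fold change for each miRNA, per the file headers. Per the submitters' processing notes, GRCm38 (mm10) and edgeR were used, while no source used here gives the aligner, the read assignment or any version. Each rpm value was divided by the value of 1 read, and 100% came out whole within 0.1 read. The deposited list of 15 miRNAs was not used beyond a look-up, and its 1 per-sample column that matches no label was not used.

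The main test was a moderated limma fit (limma 3.58.1, R 4.3.3) with a mean-variance trend to log2(rpm + 1), over the 387 miRNAs that averaged 5 rpm or more, two-sided, with Benjamini-Hochberg adjustment over all of them. The mean filter was applied anew to the libraries and scaling of each limma fit. edgeR 4.0.16 quasi-likelihood and DESeq2 1.42.0 tests on recovered reads, other pseudocounts (0.5 and 10), filters, scalings, library weights, thinning to 53626 reads, a replicate block and left-out libraries were alternatives. Likeness was the Pearson correlation of log2(rpm + 1) over 7 libraries. The text names the members, their 3p arms, the 5 most alike miRNAs, neighbours in mean level, and the 4 most abundant of each list with any at unadjusted p under 0.05. Members and lists were chosen with earlier results of these data known. Sequences are RefSeq's (GRCm38.p6) and host genes are from GENCODE M21.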

Additional observations from a re-analysis of the deposited data

Results flagged for a closer look

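Among the 4 HFD libraries, 1 sample lay far from the other 3 for 4 of 22 quantities checked by Dixon's ratio, a check that flags about 1 in 20 groups by chance. miR-122-5p was at 428 rpm in HFD replicate 4, against 24.8 to 26.5 rpm in the other HFD libraries. miR-26a-1-3p was at 25.5 rpm in HFD replicate 3, which is 3 reads, but the deeper HFD replicate 2 also held 3 reads, at 2.84 rpm. miR-26a-2-3p was at 11.4 rpm in HFD replicate 2, which is 12 reads, and miR-26b-3p at 2.84 rpm in the same library, which is 3 reads. HFD replicate 2 is the deepest library. The other 3 HFD libraries held 0 reads of both arms, where Dixon's ratio is 1 for any value, so both flags were fixed in advance. Neither miR-26a-5p nor miR-26b-5p, their sum or their ratio had a library standing apart in this way.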

How the results depend on the processing

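Over 20 alternatives, the log2 fold change of miR-26a-5p lay between -0.43 and -0.08 (adjusted p 0.699 to 0.955) and that of miR-26b-5p between -0.53 and -0.06 (adjusted p 0.699 to 0.957), so neither changed direction or passed the threshold in limma, edgeR or DESeq2. Left-out single libraries gave -0.43 to -0.08 and -0.53 to -0.11. The number of miRNAs called at adjusted p under 0.05 was 0 in 19 alternatives and 1 in DESeq2. The mean share of miRNA reads was 4.75% in HFD+Ni and 5.24% in HFD when let-7 miRNAs named 5p and miR-98-5p were left out of the total. This rise came by construction, and let-7j and let-7k stayed in the total. With single libraries left out the mean share was 1.73% to 2.32% in HFD+Ni and 2.31% to 2.62% in HFD. The members' ratio stayed at 1.41 to 1.48 and 1.33 to 1.43 in the same fits. No pairing by replicate number is stated. Deviations of same-numbered libraries correlated at 0.02, 0.19 and -0.10, where 0.19 was the highest of all combinations. HFD+Ni replicate 1 was most like HFD replicate 3, at 0.11. Such values cannot exclude a pairing. With the replicate block, in which HFD replicate 4 adds nothing to the difference, the log2 fold changes were -0.15 and -0.17 with 0 calls. Depth limits the 3p arms, which rest on 0 to 12 reads a library.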
